A study of Mus musculus with 8 samples.

Results

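The genes described here code for the receptors that sense neurotransmitters and for the postsynaptic proteins that hold and modify those receptors. They were chosen by a rule on gene names, which uses no measured value, as probe sets with exactly 1 gene symbol that begins with the family names of the glutamate, GABA, glycine and acetylcholine receptors, of the Neto, Dlg, Dlgap, Shank and Homer proteins, or of calcium/calmodulin-dependent protein kinase II (CaMKII) and its inhibitors. Gabra5, Gabrg3 and Chrna7 were not included. The rule was chosen with earlier results of these data known, so the selection is not independent of the data. The rule found 89 probe sets of 49 genes among 22511 probe sets, and 70 of them, from 44 genes, were bright enough to be tested. A probe set is a group of short probes on the array that together measure 1 transcript or part of it. Where a gene had several, they are lettered by mean signal, so that Grm5 A is the brighter probe set of Grm5.

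The arrays, Affymetrix mouse GeneChips of type 430B, held RNA from mice heterozygous for the translocation T9H (T9H/+), which all groups carried. In paternal-7 animals the proximal part of chromosome 7 was duplicated from the father and that of chromosome 15 from the mother, and maternal-7 animals had the opposite parental origin of both. Each duplication was sampled in embryonic brain, 13.5 or 15.5 days post coitum (dpc), in neonatal cortex and in neonatal cerebellum. There was 1 array for each of these 8 groups, all of which carried the duplications. Because no group had a replicate, the error of each comparison came from the departure of the 8 arrays from an additive model of context and duplication. The labels do not say whether arrays came from separate animals or from pools, and p-values therefore reflect no more than how these arrays spread.

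Fast transmission in the brain relies on ligand-gated channels. AMPA, kainate and NMDA receptors pass cations when glutamate binds, whereas GABA-A and glycine receptors pass chloride, which in the young brain can depolarise rather than inhibit. At the postsynaptic density, Dlg, Dlgap, Shank and Homer proteins link the channels to each other, to metabotropic receptors and to the cytoskeleton, and CaMKII changes the channels' strength after calcium entry.

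Values are MAS5 signals in arbitrary units, whose trimmed mean was 500.1 on every array, while array medians lay between 229.8 and 285.7. Levels can be compared for 1 probe set between arrays, but not between probe sets. Differences are on the scale log2(signal + 58.5), with the moderated standard error of limma after ±, and a difference was called at a Benjamini-Hochberg adjusted p below 0.05 over 13221 tested probe sets. Signals under the median of their array are called dim here, and a probe set was tested if it was above the median on at least 2 arrays. Among region markers, Neurod2, Bcl11b and Slc17a7 were called higher in cortex than in cerebellum (1.64, 1.91 and 2.34), 3 of 5 tested cortex markers, and Tfap2b was called lower in cortex (-4.10), 1 of 3 tested cerebellum markers. The other tested markers were not called. Emx1 (0.63) and Emx2 (0.22) of cortex and Lhx9 (-1.16) of cerebellum lay toward the region they mark. The cerebellum marker Zic1 (0.05) did not. Each gene of these and later marker lists was measured by its probe set of highest mean signal.

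Most receptor and scaffold genes gave more signal in the neonatal brain regions than in embryonic brain. In the comparison of the 4 neonatal with the 4 embryonic arrays, limma called 49 of the 70 tested probe sets higher, from 34 genes, and 2 lower, and 19 passed in neither direction. Of all tested probe sets, 14.3% were called higher and 16.4% lower, 30.7% in all. At an unadjusted p below 0.05 there were 56 of the 70, and 45.1% of all. The 49 were 70% of the tested and 55.1% of all 89 receptor and scaffold probe sets. The median difference was 1.01 over the 70 probe sets, against -0.16 over all tested probe sets, and 61 of the 70 were above 0. Of the calls, 36 were at least 1 log2 unit in size and 12 were at least 2. Every neonatal array was above every embryonic array for 38 of the 70 (54.3%), where 11.8% of all probe sets showed this pattern, and every neonatal array was below for 1, against 16.5%.

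Part of the increase lay between the embryonic ages. The median level of the 70 probe sets on the log2 scale was 8.84 at 13.5 dpc, 9.48 at 15.5 dpc, 10.71 in cortex and 10.13 in cerebellum. The paternal-7 array of 13.5 dpc had the lowest signal of the 8 for 39 of the 70 probe sets, and the maternal-7 array of that age for 18. Embryonic samples are labelled as brain and neonatal samples as cortex or cerebellum, so age and dissection cannot be told apart in this comparison. In RNA of whole tissue, fewer cells of a type and less RNA per cell cannot be told apart either.

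Markers of other cell types moved in the same comparison. All 4 tested markers of postmitotic neurons, of 12 listed, were called higher in neonatal samples (Syt1 1.59, Rbfox3 1.32, Map2 0.96 and Nefl 0.75), and their list's summed signal was 52597 to 62220 units on neonatal arrays, against 15362 to 39611 on embryonic ones. Snap25, the other listed neuron marker on the array, was below the median on too many arrays to be tested. All 4 tested astrocyte markers were also called higher, with sums of 14159 to 16512 units against 5009 to 9147. Both tested markers of dividing cells were called lower (Mcm5 -2.07 and Top2a -0.71), with sums of 771 to 1306 units on neonatal arrays against 1994 to 5873 on embryonic arrays. Their part in the receptor and scaffold result was not tested.

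**Figure D1:**
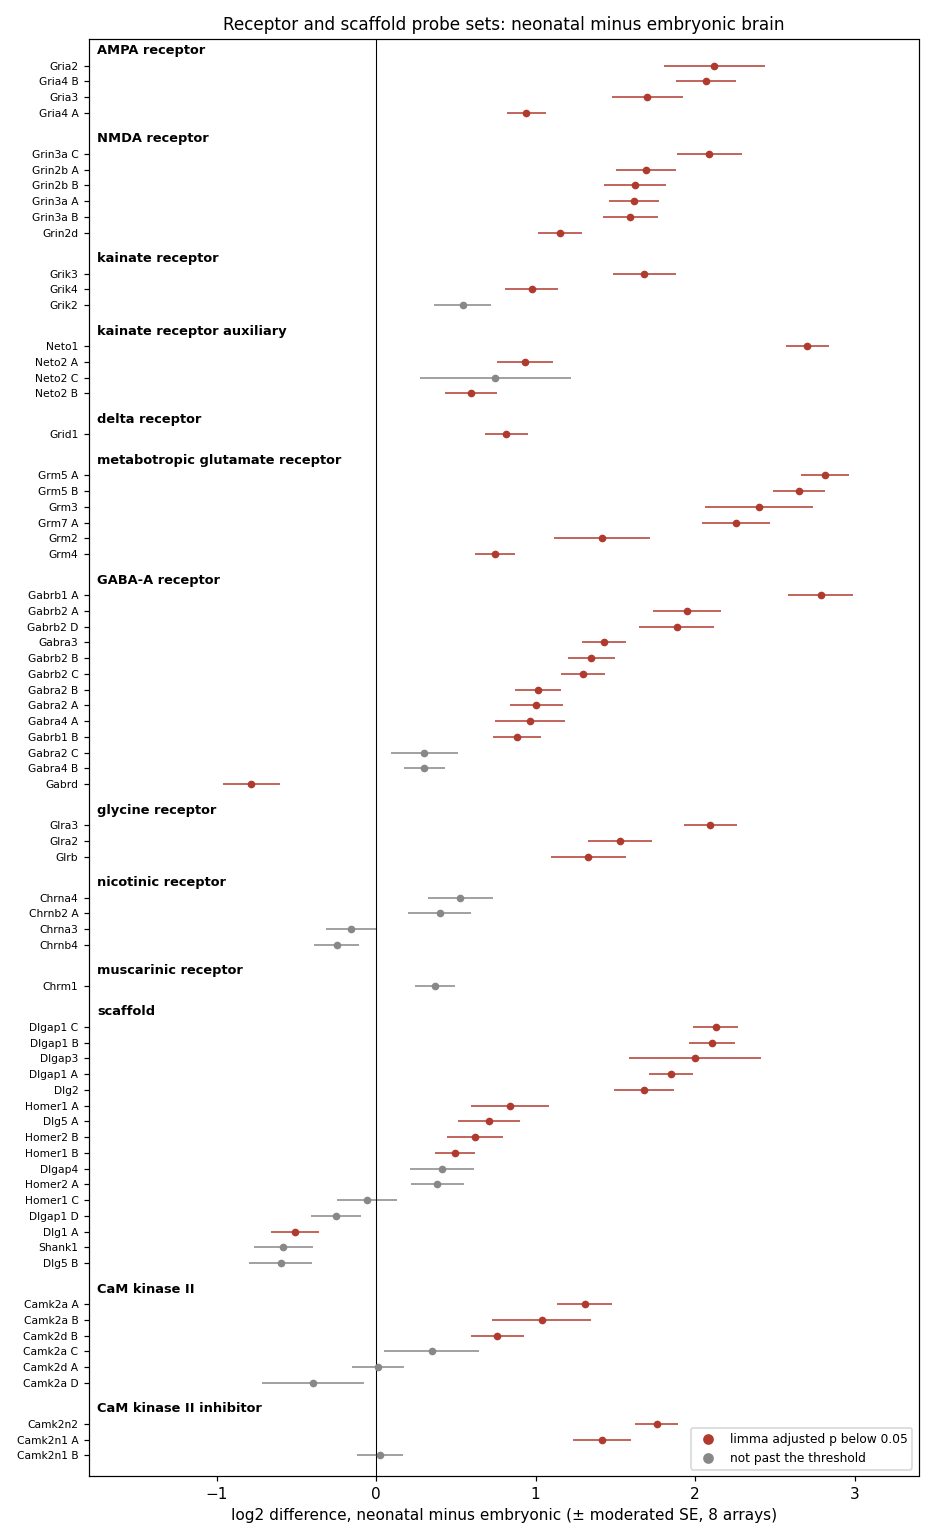
Difference between neonatal and embryonic arrays (log2, neonatal minus embryonic, x axis) for each of the 70 tested probe sets, grouped by role down the page, with bars of ± 1 moderated standard error. Red points, 51 in all, passed limma's adjusted p of 0.05; all but Gabrd and Dlg1 A lie to the right of 0, and no nicotinic or muscarinic probe set is red.

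All 4 tested AMPA receptor probe sets, of Gria2, Gria3 and Gria4, rose in neonatal samples, with differences of 0.94 to 2.12. Gria2 codes for the subunit that makes AMPA receptors impermeable to calcium. On paternal-7 arrays Gria2 gave 126 units at 13.5 dpc, 1461 at 15.5 dpc, 3916 in cortex and 3012 in cerebellum, and on maternal-7 arrays 516, 1872, 3167 and 2757 in the same order. The lowest signal, at 13.5 dpc, was below its array's median, and neonatal and embryonic arrays did not overlap. The neonatal minus embryonic difference was 2.12 ± 0.32 (adjusted p = 0.00448, limma), and 15.5 dpc exceeded 13.5 dpc by 2.40 ± 0.45 (adjusted p = 0.0328). Gria3 stayed low to 15.5 dpc. It gave 179 units at 13.5 dpc, 215 at 15.5 dpc, 1143 in cortex and 1059.9 in cerebellum on paternal-7 arrays, and 288, 391, 859 and 858 on maternal-7 arrays. Its embryonic arrays overlapped between ages, whereas each neonatal array was above each embryonic one (1.70 ± 0.22, adjusted p = 0.00301). The Gria4 probe sets both rose, B by more (2.07 ± 0.19) than A (0.94 ± 0.12), and A was also called higher at 15.5 than at 13.5 dpc (0.98 ± 0.18).

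The promoter of Gria2 is shown because the gene was among the 3 with the largest neonatal difference on the log2 scale used that were called higher both at 15.5 dpc and in neonatal samples and whose RefSeq promoters (GRCm38.p6) were used. The window runs from 250 bases before to 50 bases after the annotated start (chr3:80802786-80803085, minus strand), written 5′ to 3′ on the gene's strand. Capitals mark, first, the right half-site of RE1, the element bound by the repressor REST, which keeps neuronal genes silent outside neurons, and then a half-site of NRF-1, a factor known for genes of energy metabolism.

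Gria2: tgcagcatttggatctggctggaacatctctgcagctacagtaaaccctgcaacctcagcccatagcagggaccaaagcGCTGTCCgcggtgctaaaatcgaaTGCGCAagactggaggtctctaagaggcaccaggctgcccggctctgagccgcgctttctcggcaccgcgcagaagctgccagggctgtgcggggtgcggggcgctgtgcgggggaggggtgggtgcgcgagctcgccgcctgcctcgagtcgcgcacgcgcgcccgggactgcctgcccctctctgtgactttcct

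The letters searched for RE1 were GGACAGC on both strands, chosen with this window in view, and the match is on the opposite strand, starting 171 bases before the gene's start. They occur in 6.56% of 32851 promoter windows (7.59% of all genes), and in 5 of the 34 member genes with a window (Glra2, Glrb, Gria2, Grm2 and Homer2). The NRF-1 half-site searched was TGCGCA, which reads the same on both strands, is in 7.76% of windows (8.79% of genes) and starts 147 bases before the start of Gria2. A match of letters is a description of the sequence only.

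All 6 tested NMDA receptor probe sets, of Grin2b, Grin2d and Grin3a, rose in neonatal samples by 1.15 to 2.09, and 0 were called between 13.5 and 15.5 dpc. Grin2b codes for the subunit typical of young forebrain receptors. Its brighter probe set, Grin2b A, gave 315 units at 13.5 dpc, 542 at 15.5 dpc, 1917 in cortex and 745 in cerebellum on paternal-7 arrays, and 176, 485, 1862 and 964 on maternal-7 arrays. Cortex was above cerebellum on both duplications, and all neonatal arrays were above all embryonic arrays (1.69 ± 0.19, adjusted p = 0.00173, limma). Grin2b B was dim on all 4 embryonic arrays and at least 2.15-fold higher in neonatal ones, the dim side being set at the array median. It passed the brightness filter only through the neonatal arrays, where it is high, as did Glra3 and Gabra4 B, so a higher neonatal level was a condition of its being tested. Grin2d, a subunit of slowly closing receptors, differed by 1.15 ± 0.14. The 3 probe sets of Grin3a, whose product lowers the calcium flow of the receptor, differed by 1.61 ± 0.16, 1.59 ± 0.17 and 2.09 ± 0.20. Grin3a A gave 749.7 and 902 units at 13.5 and 15.5 dpc, 2949 in cortex and 2794 in cerebellum on paternal-7 arrays, and 831, 867, 2065 and 3028 on maternal-7 arrays. Both embryonic ages were close together, and the step lay between them and the neonatal arrays.

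Of 3 tested kainate receptor probe sets, Grik3 (1.68 ± 0.20) and Grik4 (0.98 ± 0.17) rose, and Grik2 had a difference of 0.54 ± 0.18 (adjusted p = 0.0595, limma). Grik4 codes for a high-affinity subunit that works only together with others. It gave 309 units at 13.5 dpc, 108 at 15.5 dpc, 421 in cortex and 351 in cerebellum on paternal-7 arrays, and 260.2, 112, 634 and 307 on maternal-7 arrays. Its lowest signals were thus at 15.5 dpc, where both arrays were dim. The difference of -1.02 ± 0.23 between 15.5 and 13.5 dpc missed the threshold (adjusted p = 0.0529, limma). Neonatal and embryonic arrays overlapped for Grik4, with 307 units in maternal-7 cerebellum and 309 in paternal-7 brain of 13.5 dpc. Grid1, of the delta receptors, which bind synaptic organisers rather than open to glutamate, rose by 0.82 ± 0.14.

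Neto1 and Neto2 code for membrane proteins that attach to kainate receptors and slow their closing. Neto1 was the only member called higher in all 3 comparisons of contexts. On paternal-7 arrays it gave 43.8 units at 13.5 dpc, 641 at 15.5 dpc, 2587 in cortex and 871 in cerebellum, and on maternal-7 arrays 18.6, 444, 2451 and 752. It was dim at 13.5 dpc on both arrays and above the median on the other 6. The neonatal difference was 2.70 ± 0.14 (adjusted p = 0.000565, limma), and 15.5 dpc exceeded 13.5 dpc by 2.74 ± 0.19 (adjusted p = 0.00438), at least 1.95-fold. Neto2 A (0.93 ± 0.18) and Neto2 B (0.60 ± 0.16) also rose in neonatal samples, although neonatal and embryonic arrays overlapped for both. Neto2 C had a difference of 0.75 ± 0.47 that missed the threshold. Over all settings run, arrays left out included, Neto2 B lost its call in 9 of 17. The call of Neto2 A was lost without the paternal-7 cortex array (adjusted p = 0.0548), and that of Neto2 B on leaving out any of 7 of the 8 arrays (up to 0.13).

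All 6 tested metabotropic glutamate receptor probe sets rose, with a median of 2.33. Grm5 codes for a receptor that couples to calcium release and binds Homer. On paternal-7 arrays Grm5 A gave 230.1 units at 13.5 dpc, 1050.0 at 15.5 dpc, 4538 in cortex and 4438 in cerebellum, and on maternal-7 arrays 243, 1384, 4291 and 3748. The arrays fell into 3 levels that did not overlap, 13.5 dpc, 15.5 dpc and neonatal, and cortex and cerebellum overlapped. Its neonatal difference of 2.82 ± 0.15 had an adjusted p of 0.000565 (limma), and 15.5 dpc was at least 4.41-fold above 13.5 dpc (2.10 ± 0.21). Grm5 B had a similar course (2.65 ± 0.16 between neonatal and embryonic, 1.69 ± 0.23 between ages). Grm3, a receptor that lowers cyclic AMP and is found on neurons and astrocytes, differed by 2.40 ± 0.34. Grm7 A, a receptor of presynaptic terminals, differed by 2.26 ± 0.21. Grm2 rose by 1.42 ± 0.30 and Grm4, known for its place on cerebellar granule cell terminals, by 0.74 ± 0.13. Grm4 gave 1389 units at 13.5 dpc, 1676 at 15.5 dpc, 1921 in cortex and 3313 in cerebellum on paternal-7 arrays, and 928, 1273, 1386 and 2640.2 on maternal-7 arrays. Cerebellum was the highest context on both duplications. The call of Grm2 was lost without the paternal-7 cortex, paternal-7 cerebellum or maternal-7 cerebellum array (adjusted p of 0.071, 0.0668 and 0.0555).

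**Figure D2:**
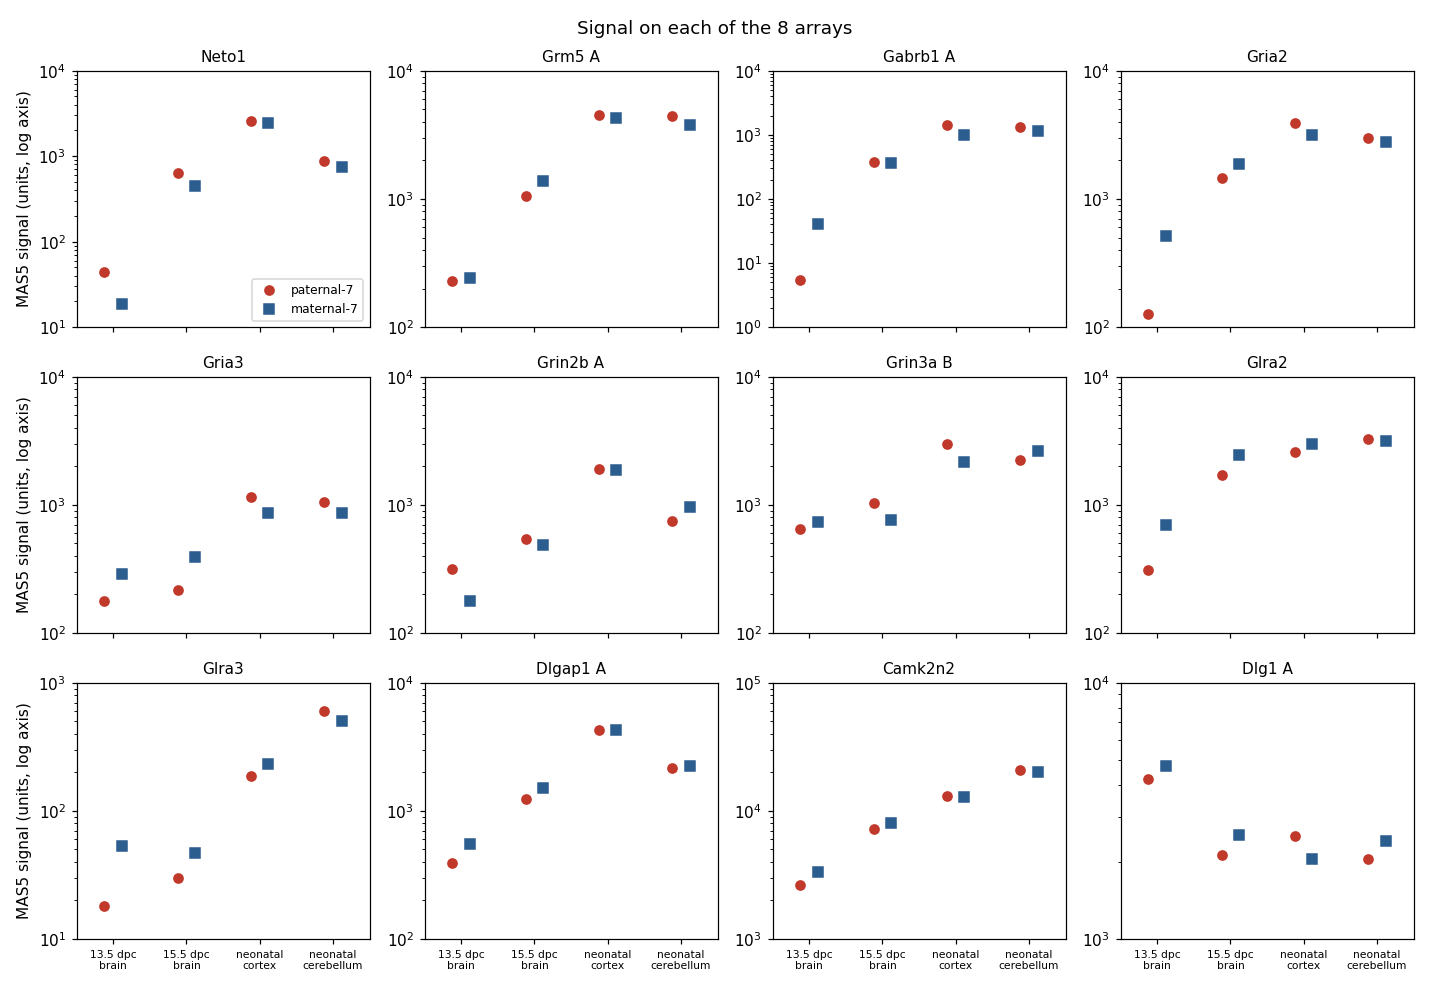
MAS5 signal (log axis, arbitrary units) of 12 probe sets on each of the 8 arrays, by context from 13.5 dpc to neonatal cerebellum, with paternal-7 arrays as red circles and maternal-7 arrays as blue squares. Neto1, Grm5 A, Gabrb1 A and Gria2 step up at 15.5 dpc and again in neonatal samples, Gria3, Grin3a B and Glra3 step up in the neonatal samples, and Dlg1 A is highest at 13.5 dpc.

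Of 13 tested GABA-A receptor probe sets, 10 rose in neonatal samples and 1, Gabrd, fell. Gabrb1, Gabrb2 and the alpha genes code for subunits that build the channel and its GABA site. Gabrb1 A gave 5.38 units at 13.5 dpc, 375 at 15.5 dpc, 1447 in cortex and 1325 in cerebellum on paternal-7 arrays, and 40.6, 365, 1006 and 1128 on maternal-7 arrays. Both arrays of 13.5 dpc were dim, and embryonic and neonatal arrays did not overlap. The neonatal difference was 2.79 ± 0.20 (adjusted p = 0.000661, limma), and 15.5 dpc exceeded 13.5 dpc by 2.43 ± 0.29, at least 1.35-fold. Gabrb1 B differed by less, 0.88 ± 0.15. The 4 probe sets of Gabrb2 all rose, by 1.95 ± 0.21, 1.35 ± 0.15, 1.29 ± 0.14 and 1.88 ± 0.24 for A to D. Gabrb2 A gave 441 units at 13.5 dpc, 2098 at 15.5 dpc, 4655 in cortex and 4995 in cerebellum on paternal-7 arrays, and 914, 2077, 3963 and 5141 on maternal-7 arrays. Gabrb2 A, Gabrb2 B, Gabra3 and Gabrb1 A were the GABA-A probe sets called higher at 15.5 than at 13.5 dpc.

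Among alpha subunits, which set the receptor's sensitivity to GABA and to benzodiazepines, Gabra3 rose by 1.43 ± 0.14 and was above all embryonic arrays on each neonatal array. Gabra2 A (1.0 ± 0.16) and Gabra2 B (1.01 ± 0.14) were called although cerebellum overlapped with 15.5 dpc, and Gabra2 C (0.30 ± 0.21) was not. Gabra4 A rose by 0.96 ± 0.22, a call lost without the paternal-7 13.5 dpc, paternal-7 cortex or paternal-7 cerebellum array (adjusted p of 0.0628, 0.0792 and 0.0837, limma). Gabra4 B differed by 0.30 ± 0.13 and missed the threshold. Gabrd codes for the delta subunit of receptors outside the synapse that give tonic inhibition. It gave 461 units at 13.5 dpc, 512 at 15.5 dpc, 153 in cortex and 239 in cerebellum on paternal-7 arrays, and 350.4, 381, 200.4 and 316 on maternal-7 arrays. Both cortex signals were dim (array medians of 230.6 for paternal-7 and 235.2 for maternal-7). Each neonatal array was below each embryonic one (-0.78 ± 0.18, adjusted p = 0.0187), and the call was lost without any 1 of the 4 paternal-7 arrays (adjusted p of 0.0603 to 0.0902).

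A promoter window of Gabrb1 is given for the same reason as that of Gria2 (chr5:71699682-71699981, plus strand, GRCm38.p6). Capitals mark adjoining copies of the NRF-1 half-site.

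Gabrb1: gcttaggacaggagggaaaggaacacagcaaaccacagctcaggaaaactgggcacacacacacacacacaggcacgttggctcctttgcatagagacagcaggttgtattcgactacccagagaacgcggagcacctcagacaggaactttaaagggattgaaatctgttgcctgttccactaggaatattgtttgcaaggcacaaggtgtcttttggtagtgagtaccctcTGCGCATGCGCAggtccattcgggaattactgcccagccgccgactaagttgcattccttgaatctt

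The copies begin 17 and 11 bases before the start and do not overlap. The table holds another Gabrb1 window with 1 copy, 14 bases before its start, and 6 of the 34 member genes hold the half-site. The GC box, GGGCGG on either strand, was in 22 of the 34 (64.7%), and in 38.2% of all genes with a window. The TATA motif, TATAAA, was in 6 of the 34 (17.6%), and in 15.7% of all genes.

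All 3 tested glycine receptor probe sets rose. Glycine receptors are inhibitory channels of brainstem and spinal cord in the adult, and Glra2 codes for the alpha subunit typical of the fetal brain. It gave 311 units at 13.5 dpc, 1704 at 15.5 dpc, 2609 in cortex and 3267 in cerebellum on paternal-7 arrays, and 697, 2463, 2963 and 3142 on maternal-7 arrays. All 13.5 dpc arrays were below all others, and 15.5 dpc exceeded 13.5 dpc by 2.0 ± 0.28 (adjusted p = 0.0183, limma). Neonatal samples exceeded embryonic ones by 1.53 ± 0.20. Glra3 was dim on all embryonic arrays, at 18.3 and 30 units on paternal-7 and 53.2 and 46.8 on maternal-7 arrays at 13.5 and 15.5 dpc. It gave 188 units in cortex and 605 in cerebellum on paternal-7 arrays, and 233 and 499.7 on maternal-7 arrays. Both cortex signals were also below their array medians (230.6 and 235.2), so cortex was dim as well. The geometric mean of all neonatal arrays was at least 1.26-fold above the embryonic side, and this bound does not hold for cortex alone. Its difference of 2.10 ± 0.16 has a dim side, and the probe set entered the test only through its cerebellum arrays. Glrb, the beta subunit that anchors the receptor through gephyrin, rose by 1.33 ± 0.23.

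No acetylcholine receptor probe set passed the threshold. Of the 4 tested nicotinic probe sets, 0 were called in either direction by limma, with differences of 0.53 ± 0.20 for Chrna4, 0.40 ± 0.19 for Chrnb2 A, -0.16 ± 0.16 for Chrna3 and -0.25 ± 0.14 for Chrnb4. Chrna4 and Chrnb2 form the main nicotinic receptor of the brain, and Chrna3 and Chrnb4 that of autonomic ganglia. Chrnb2 A, the brightest, gave 451 units at 13.5 dpc, 1248 at 15.5 dpc, 1107 in cortex and 894 in cerebellum on paternal-7 arrays, and 786, 971, 1189 and 1199 on maternal-7 arrays. Chrm1, a muscarinic receptor of forebrain neurons, differed by 0.37 ± 0.13 (adjusted p = 0.0668). These values do not show that the genes kept 1 level.

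Of 16 tested scaffold probe sets, 9 rose in neonatal samples and 1 fell, and their median was 0.56. Dlgap1 links the membrane-associated Dlg proteins to Shank. Dlgap1 A gave 393 units at 13.5 dpc, 1243 at 15.5 dpc, 4250.1 in cortex and 2167 in cerebellum on paternal-7 arrays, and 552, 1507, 4256 and 2221 on maternal-7 arrays. The 4 contexts did not overlap, and both duplications gave nearly the same cortex signal. Dlgap1 A, B and C differed by 1.85 ± 0.14, 2.10 ± 0.14 and 2.13 ± 0.14 between neonatal and embryonic arrays, and by 1.44 ± 0.20, 1.52 ± 0.20 and 1.55 ± 0.20 between 15.5 and 13.5 dpc, whereas Dlgap1 D had differences of -0.25 ± 0.16 and 0.03 ± 0.22. Probe sets B and C were dim at 13.5 dpc, so the age difference was at least 2.18-fold and 1.7-fold for these.

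The Dlgap1 window with a motif (chr17:70561497-70561796, plus strand, GRCm38.p6) is shown by the same rule, and another window of the gene held none of the motifs searched. Capitals mark an E-box, CAGCTG, the letters read by neurogenic basic helix-loop-helix factors.

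Dlgap1: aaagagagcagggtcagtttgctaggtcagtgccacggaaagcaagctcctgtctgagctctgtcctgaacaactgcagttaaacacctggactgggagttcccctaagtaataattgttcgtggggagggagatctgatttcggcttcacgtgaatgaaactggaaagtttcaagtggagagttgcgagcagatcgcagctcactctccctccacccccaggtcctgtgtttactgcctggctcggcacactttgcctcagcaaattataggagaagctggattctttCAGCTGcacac

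This E-box begins at base 40 after the start, and 16.3% of all windows hold 1 on either strand. It was in 9 of the 34 member genes (26.5%), and in 18.3% of all genes.

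Dlg2, a membrane-associated guanylate kinase that anchors NMDA receptors, gave 697 units at 13.5 dpc, 2131 at 15.5 dpc, 6480.3 in cortex and 3988 in cerebellum on paternal-7 arrays, and 1066, 2138, 4900.5 and 3222 on maternal-7 arrays. It rose by 1.68 ± 0.19 in neonatal samples (adjusted p = 0.00187, limma) and by 1.25 ± 0.27 at 15.5 dpc. Dlgap3 rose by 2.0 ± 0.41, a call lost without the paternal-7 cortex, paternal-7 cerebellum or maternal-7 cerebellum array (adjusted p of 0.0657, 0.0651 and 0.0514). Dlg1 A went the other way. It gave 4204 units at 13.5 dpc, 2125 at 15.5 dpc, 2515 in cortex and 2055 in cerebellum on paternal-7 arrays, and 4750.0, 2545, 2053 and 2414 on maternal-7 arrays. The 13.5 dpc arrays were highest, while 15.5 dpc and neonatal arrays overlapped (-0.51 ± 0.15, adjusted p = 0.0414), and the call was lost without any 1 of the 8 arrays and under 4 other settings.

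Dlg5, a scaffold best known at epithelial junctions, had probe sets that disagreed. Dlg5 A gave 640.4 units at 13.5 dpc, 147 at 15.5 dpc, 676 in cortex and 786 in cerebellum on paternal-7 arrays, and 782, 298, 617 and 673 on maternal-7 arrays. The lowest arrays were those of 15.5 dpc, so the probe set was called lower at 15.5 than at 13.5 dpc (-1.50 ± 0.28, adjusted p = 0.0318, limma) and higher in neonatal than in embryonic samples (0.71 ± 0.20, adjusted p = 0.0348). Dlg5 B had differences of 0.27 ± 0.28 and -0.60 ± 0.20. Homer1 A (0.84 ± 0.24), Homer1 B (0.50 ± 0.13) and Homer2 B (0.62 ± 0.17) rose, and Homer1 C (-0.06 ± 0.19) and Homer2 A (0.38 ± 0.17) missed the threshold. Homer proteins tie metabotropic receptors to calcium stores. The calls of Dlg5 A, Homer1 A, Homer1 B and Homer2 B were each lost on leaving out any of 7 of the 8 arrays, with adjusted p of up to 0.141, 0.157, 0.115 and 0.137. Over all settings run, arrays left out included, these calls were lost in 8 of 17, 11 of 17, 7 of 17 and 8 of 16 in turn. Shank1 differed by -0.58 ± 0.19 (adjusted p = 0.0559, limma) and Dlgap4 by 0.41 ± 0.20.

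Camk2a codes for the kinase subunit of mature forebrain neurons. Camk2a A gave 596 units at 13.5 dpc, 1164 at 15.5 dpc, 3068 in cortex and 1177 in cerebellum on paternal-7 arrays, and 270.3, 781, 1829.6 and 1075 on maternal-7 arrays. Cortex was highest on both duplications, and cerebellum overlapped with 15.5 dpc. The neonatal difference was 1.31 ± 0.17 (adjusted p = 0.00301, limma). Of the 6 tested CaMKII probe sets, Camk2a A, Camk2a B (1.04 ± 0.31) and Camk2d B (0.76 ± 0.17) rose. Camk2a C (0.35 ± 0.30), Camk2a D (-0.40 ± 0.32) and Camk2d A (0.01 ± 0.16) were not called. Over all settings run, arrays left out included, Camk2a B lost its call in 9 of 17. The call of Camk2a B was lost on leaving out any of 6 arrays (up to 0.163) and that of Camk2d B on leaving out any of 5 (up to 0.0754).

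Camk2n1 and Camk2n2 code for small proteins that inhibit CaMKII. Camk2n2 gave 2660.4 units at 13.5 dpc, 7273 at 15.5 dpc, 13159 in cortex and 20889.8 in cerebellum on paternal-7 arrays, and 3347, 8014, 12885 and 19968 on maternal-7 arrays. Every context was separate from the others and cerebellum was the highest. The neonatal difference was 1.76 ± 0.14 (adjusted p = 0.000748, limma) and that between ages 1.34 ± 0.19. Camk2n1 A rose by 1.41 ± 0.18, whereas Camk2n1 B differed by 0.02 ± 0.15.

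Among the 16 genes with at least 2 tested probe sets, all tested probe sets were called higher in neonatal samples for 6 genes, and some but not all for 10. The 19 probe sets too dim to test were Camk2a E, Camk2d C, D and E, Chrna5, Chrna9 A, B and C, Chrnb2 B, Dlg1 B, Dlgap1 E and F, Dlgap2, Gabra2 D, Gabrb1 C, Glra1, Grik1, and Grm7 B and C. Leaving out 1 array kept 38 to 47 probe sets called higher, the lowest without the paternal-7 cortex array, and all 51 called differences kept their direction in every setting in which they were tested. The call itself held in every such setting for 38 of the 51.

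Between 15.5 and 13.5 dpc, where samples of both ages are labelled as brain, limma called 19 of the 70 probe sets higher, from 15 genes. It called 1 lower, Dlg5 A. This was 27.1% higher, against 3.52% of all tested probe sets, and 1.43% lower, against 3.07% (6.59% in both directions). At an unadjusted p below 0.05 there were 38 of the 70, and 23.0% of all. The median difference was 0.63 over the 70 and -0.02 over all tested probe sets. Both 15.5 dpc arrays were above both 13.5 dpc arrays for 45 of the 70 (64.3%), a pattern of 22.5% of all probe sets, and below for 4 (5.71%, against 24.1%). The 19 were Gria2, Gria4 A, Neto1, Neto2 A, Grm5 A and B, Gabra3, Gabrb1 A, Gabrb2 A and B, Glra2, Dlg2, Dlgap1 A, B and C, Homer1 B, Camk2a A, Camk2n1 A and Camk2n2. All 19 were also called higher in neonatal samples. No NMDA, kainate or nicotinic probe set was among them.

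These age calls rested on few arrays. Without the paternal-7 array of 13.5 dpc 0 probe sets were called higher, and without the maternal-7 array of that age 17 were. There were 2 calls without either 15.5 dpc array, 3 without either cortex array and 4 without either cerebellum array. Neto1 and Grm5 A lost the call only without the paternal-7 13.5 dpc array (adjusted p of 0.0532 and 0.0806, limma). The direction of all 20 held in every setting. Cortex and cerebellum arrays do not enter the age difference itself. Without 1 of them it stayed the same (Gria2 2.40), and only its error and adjusted p changed. Neuron markers moved in the same comparison, with 3 of 4 tested called higher, and their summed signal was 34483 and 39611 units at 15.5 dpc, against 15362 and 22365 at 13.5 dpc. The astrocyte marker Slc4a4 (0.93, 1 of 4 tested) and Gad2 of GABAergic interneurons (1.49, 1 of 1) were also called higher. Mcm5 of dividing cells (-1.26, 1 of 2) and Prrx1 of mesenchyme (-2.90, 1 of 4) were called lower. The part of these cell types was not tested.

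Cortex and cerebellum differed for few of these genes by the test. Neto1 was the only 1 of the 70 probe sets called higher in cortex (1.57 ± 0.19, adjusted p = 0.0369, limma), 1.43% against 0.197% of all tested probe sets, and 0 were called lower, against 0.129% (0.325% in both directions). Leaving out any 1 array lost this call, with adjusted p of 0.0685 to 0.426, and the 8 values of Neto1 above show cortex highest on both duplications. Without 1 of the embryonic arrays the Neto1 difference stayed at 1.57, and only its error and adjusted p changed. At an unadjusted p below 0.05 there were 25 of the 70, and 7.65% of all probe sets. Both cortex arrays were above both cerebellum arrays for 25 of the 70 (35.7%, against 19.6% of all) and below for 14 (20%, against 21.4%).

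Values that missed the threshold are given for size. Grin2b B gave 1349 and 823 units on the paternal-7 and maternal-7 cortex arrays, against 311 and 333 on the cerebellum arrays (1.55 ± 0.28, adjusted p = 0.129, limma). Grin2b A had a difference of 1.10 ± 0.26, Camk2a A of 1.04 ± 0.24 and Dlgap1 A of 0.94 ± 0.20, all with higher cortex arrays. On the other side, Glra3 had a difference of -1.18 ± 0.23 (adjusted p = 0.166, limma), Grm4 of -0.84 ± 0.18 and Grin2d of -0.68 ± 0.19. All had lower cortex arrays on both duplications, and both cortex arrays of Glra3 were dim. Glra3 passed the brightness filter only through its cerebellum arrays, so a higher cerebellum signal was a condition of its being tested.

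**Figure D3:**
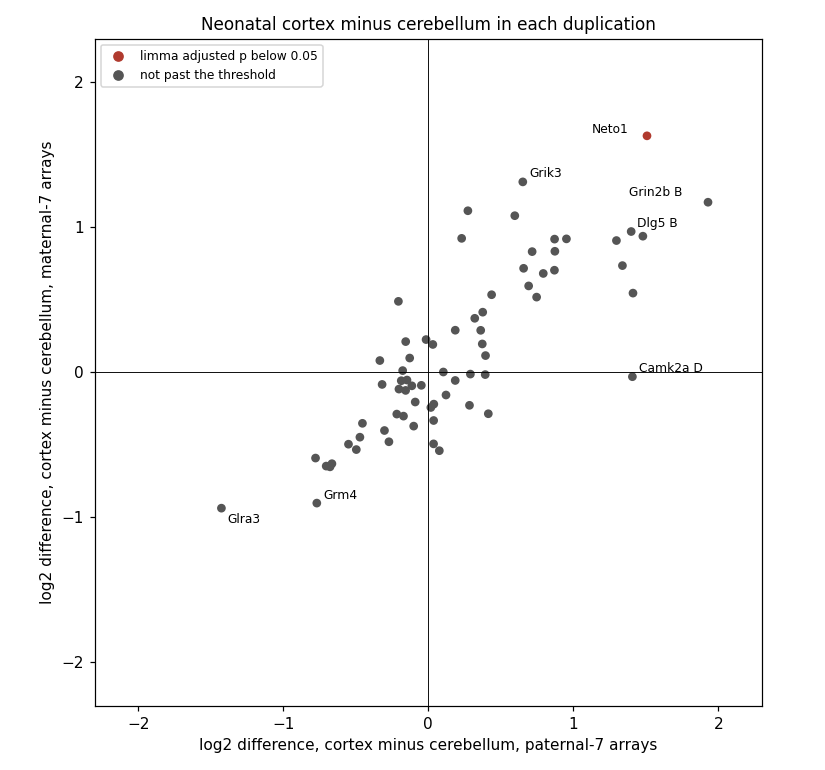
Cortex minus cerebellum difference (log2) of the 70 probe sets on paternal-7 arrays (x axis) and maternal-7 arrays (y axis), each point from 1 pair of arrays. Neto1, in red, was the probe set called by limma; Glra3 and Grm4 lie low on both axes, and Camk2a D is high on the paternal-7 axis alone.

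No receptor or scaffold probe set passed the threshold between the duplications. In paternal-7 minus maternal-7, limma called 0 of the 70 probe sets, with a smallest adjusted p of 0.535, against 0.00756% of all tested probe sets (1). At an unadjusted p below 0.05 there were 6 of the 70, and 8.68% of all. The paternal-7 array was above the maternal-7 array in 4 of 4 contexts for 8 of the 70 (11.4%, against 9.67% of all) and below for 3 (4.29%, against 9.08%). No member was called with the neonatal or the embryonic contexts alone.

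The largest differences with 1 sign in every context are given as values. Camk2a A differed by 0.60 ± 0.17, Gabrb1 B by 0.52 ± 0.15, Grm4 and Gabra2 B each by 0.43, and Camk2d A by 0.33 ± 0.16. Camk2a D had the largest difference in the other direction (-1.18 ± 0.32), followed by Grik2 (-0.24 ± 0.18) and Dlgap1 A (-0.18 ± 0.14). Camk2a D gave 224 units at 13.5 dpc, 297 at 15.5 dpc, 451 in cortex and 133 in cerebellum on paternal-7 arrays, and 1220.2, 625, 483 and 495 on maternal-7 arrays. Every paternal-7 array was thus below every maternal-7 array for Camk2a D, while Camk2a A, of the same gene, lay in the other direction. Members on chromosome 7 were Grm5, Grin2d, Dlg2, Homer2 and Shank1. The labels give no breakpoints, and none of these was called (Shank1 0.40 ± 0.19, Grin2d 0.12 ± 0.14, Dlg2 0.03 ± 0.19). No member lies on chromosome 15. Gabra5, Gabrg3 and Chrna7, which are not members, are not covered by this comparison.

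On these arrays, the pair difference was below 0 for most members at both embryonic ages and above 0 for most in both neonatal regions. The 70 probe sets share the same arrays and are not separate observations of a stage effect. Paternal-7 was above maternal-7 for 26 of 70 probe sets at 13.5 dpc (37.1%, against 53.3% of all tested probe sets) and for 25 at 15.5 dpc (35.7%, against 52.7%). It was above for 54 in cortex (77.1%, against 50.5%) and for 53 in cerebellum (75.7%, against 49.2%). The medians were -0.20, -0.13, 0.22 and 0.19 in the same order. At 13.5 dpc 8 probe sets (11.4%, against 6.66% of all tested probe sets) differed at least 2-fold, 6 of them lower in paternal-7. In each other context 1 did so (1.43%), against 7.92% of all at 15.5 dpc, 2.7% in cortex and 2.87% in cerebellum. In limma's test of the neonatal against the embryonic duplication effect, 0 of the 70 were called (smallest adjusted p 0.461), 14 had an unadjusted p below 0.05, against 9.14% of all, and the median was 0.36. Neuron marker sums on paternal-7 and maternal-7 arrays were 15362 and 22365 units at 13.5 dpc, 34483 and 39611 at 15.5 dpc, 56866 and 52597 in cortex, and 56578 and 62220 in cerebellum. Their part in these signs was not tested, and each pair is 1 array against 1.

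**Figure D4:**
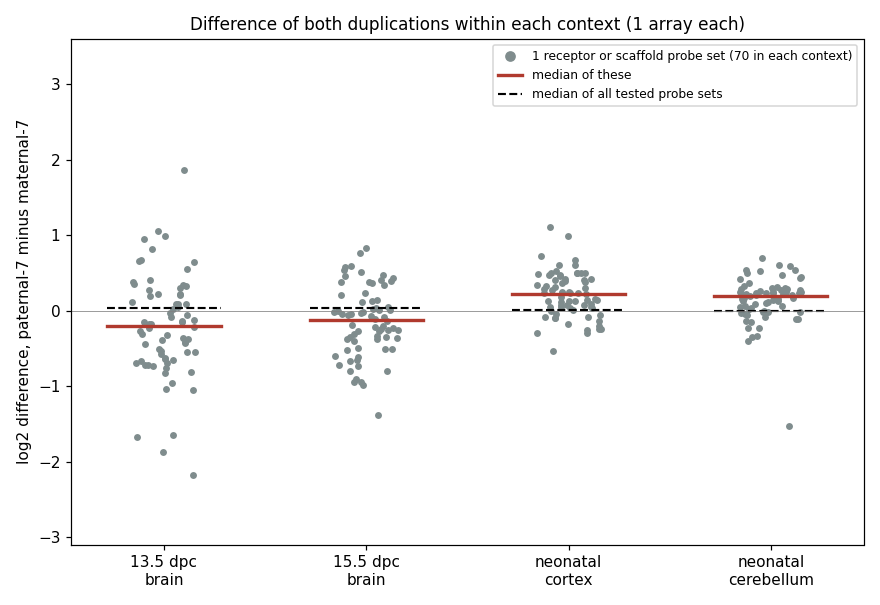
Paternal-7 minus maternal-7 difference (log2) of each of the 70 probe sets in each context, 1 array of each duplication, with the median of the 70 in red and that of all tested probe sets dashed. The red median is below 0 at 13.5 and 15.5 dpc (-0.20 and -0.13) and above 0 in cortex and cerebellum (0.22 and 0.19), and the spread is widest at 13.5 dpc.

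Other genes of the postsynapse are a list of 83, of which 46 were tested. Each was measured by its probe set of highest mean signal, whereas shares of all tested probe sets count every probe set. In neonatal against embryonic samples limma called 29 of the 46 higher and 0 lower, against 14.3% higher and 16.4% lower among all tested probe sets. The differences of 39 of the 46 were above 0 (median 0.61), with Shisa9 (2.11 ± 0.22), Lrrtm4 (2.07 ± 0.22), Nlgn1 (2.06 ± 0.21) and Nlgn3 (1.79 ± 0.18) the largest. Shisa9 is an AMPA receptor auxiliary protein, and the others are adhesion molecules that organise synapses. Between 15.5 and 13.5 dpc 7 were called higher and 0 lower (3.52% and 3.07% of all), led by Lrrtm4 (1.58 ± 0.31), Nlgn3 (1.39 ± 0.26), Adgrb3 (1.31 ± 0.22) and Kalrn (1.25 ± 0.21). For cortex against cerebellum and for the duplications, 0 of the 46 were called by limma.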

How the data were processed

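The 8 arrays, 1 for each duplication in each of 4 contexts, were used as deposited. Trizol and RNeasy columns were used to prepare RNA, and 9 µg went into each biotin labelling, per the labels' protocols. The authors deposited linear signal intensities, which MAS5 produced per the submitters' processing notes (version not stated there). MAS5 summarises a probe set array by array, so dim signals are noisy. The trimmed mean was the same on every array, while the median of all differences between neonatal and embryonic arrays was -0.16. Arrays have no depth, and their number limits the precision.

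After 64 control probe sets were set aside, 22511 remained, of which 14661 had 1 gene symbol, 245 several and 7605 none in the platform annotation, which can be old. Symbols were updated through RefSeq GRCm38.p6. Signals were transformed as log2(signal + 58.5), with the arrays' median 20th percentile as pseudocount, which understates changes of dim probe sets. Probe sets above the array median on at least 2 of 8 arrays were tested, 13221 in all (58.7%). Models with terms for context and duplication (3 residual degrees of freedom) and with separate neonatal and embryonic duplication effects (2) were fitted in R 4.3.3 (limma 3.58.1), and p-values were adjusted by Benjamini-Hochberg. Where 1 side was dim on every array, "at least N-fold" sets the dim side at the larger of its signal and the array median.

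The rule for the members uses gene names alone, but that rule and the lists were chosen with earlier results of these data known, so the selection is not independent of the data. Genes were named if called in any contrast (up to 30 per contrast by size, with the remaining calls named as well), if brightest in their role, if among the 5 largest duplication differences of 1 sign in each direction, or if another probe set of their gene was named. Besides the lists in the text, neural progenitors (1 tested, Rfx4, higher in neonatal samples), GABAergic interneurons (1 tested, Gad2, higher), oligodendrocyte lineage (1 tested, 0 called), choroid plexus (3 tested, 0 called between neonatal and embryonic, Kcnj13 higher at 15.5 dpc) and skeletal muscle and mesenchyme (4 tested, Prrx1 lower in neonatal and in 15.5 dpc samples) were examined, and microglia and red blood cells had 0 probe sets of 1 symbol. Alternatives were quantile normalization, median centring, a pseudocount of 16, a floor of 1, no filter, a filter at the 75th percentile, an intensity trend, robust moderation, leaving out each array, and, chosen after seeing the data, a filter on the mean signal.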

Additional observations from a re-analysis of the deposited data

How the results depend on the processing

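Neonatal against embryonic: 47 to 52 member probe sets were called higher under quantile normalization, centring, a pseudocount of 16, a floor, the stricter filter, an intensity trend, robust moderation and the filter on the mean signal (chosen after seeing the data), 46 without a filter, and 38 to 47 with 1 array left out. Called lower were 1 under centring, a pseudocount of 16, a floor, no filter and the stricter filter, 4 under the filter on the mean signal, and 0 to 2 with 1 array left out. Over all probe sets the count of 4055 became 1827 to 3523 with 1 array left out. Of these calls 46.5% were higher, but 54.7% under quantile normalization and 69.4% under centring, where the median of all probe sets moved to -0.06 and 0.02.

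Age: 11 member probe sets were called higher with a floor, 9 without a filter, 32 with the stricter filter, 30 with a trend and 0 to 17 with 1 array left out. Called lower were 3 under quantile normalization and under the filter on the mean signal, 0 with a floor or no filter, 2 with the stricter filter or a trend, and 0 to 1 with 1 array left out. All probe sets gave 871, against 459 with a floor, 207 without a filter, 1354 with the stricter filter, 1411 with a trend and 0 to 522 with 1 array left out.

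Cortex against cerebellum: Neto1 was called in the main setting; 0 members were called with a pseudocount of 16, a floor, no filter or any array left out, and 2 with the stricter filter. All probe sets gave 43, against 27, 22, 11 and 83 under these settings in turn, 87 with a trend, and 0 to 21 with 1 array left out.

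Duplications: 0 members were called under every setting run. All probe sets gave 1, against 0 with a floor, no filter or embryonic contexts alone, 4 with the stricter filter or neonatal contexts alone, 3 with a trend, 2 with the filter on the mean signal, and 0 to 2 with 1 array left out. The median member level at 13.5 dpc was 8.73 under quantile normalization and 8.74 under centring, and that of cerebellum 10.22 under centring. No named difference changed sign. The cause of these changes was not tested. No paired analysis was possible because each group holds 1 array and so no replicate number to use as a block, beyond the context term, which already sets both duplications side by side within each context.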
